A study of Mus musculus with 2 samples.

Results

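The genes Grin2a and Grin2b encode GluN2A and GluN2B, the glutamate-binding subunits that set the channel properties of NMDA receptors in the forebrain. Their DNA methylation was described in the adult mouse dentate gyrus, by the windows 9577000 to 9996000 of chromosome 16 for Grin2a and 135663000 to 136123000 of chromosome 6 for Grin2b (mm9). All cytosines listed there with at most 100 reads in replicate 2 were taken: 3605 in Grin2a and 4917 in Grin2b, together 8522 of the 27435342 cytosines listed for that library. No listed site in either window had more than 100 reads, so the limit removed none. By RefSeq gene order, the nearest protein-coding neighbours of Grin2a were 1810013L24Rik at lower and Rpl39l at higher coordinates, and those of Grin2b were Emp1 and Eif4a3l1. No other protein-coding gene overlapped either. Exons, introns and UTRs were not analysed here, and whether each window covers its whole gene was not checked.

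The study has 1 group of 2 libraries, replicate 1 and replicate 2, each of genomic DNA from dentate gyri dissected from male C57Black6 mice of 8 to 10 weeks. The libraries are titled WT, no treatment is named, and the series' text calls them biological replicates without saying how many mice each holds. The dentate gyrus holds granule neurons together with interneurons and glia. Levels are therefore averages over cell types, and a share of cells cannot be told apart from a partial level within cells. Bisulfite reads also do not separate methylcytosine from hydroxymethylcytosine. With replicate 1 too shallow at these loci, every level below comes from 1 library unless replicate 1 is named. There is thus no test between groups. Exact 95% Clopper-Pearson intervals of levels, and Newcombe intervals of differences, cover counting error only, since neighbouring sites share reads and PCR copies are not separate molecules.

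NMDA receptors are glutamate-gated cation channels that need coincident glutamate and depolarisation to open, and they start many forms of synaptic plasticity. They combine obligatory GluN1 subunits with GluN2 subunits. GluN2B predominates early in development, while GluN2A increases as forebrain synapses mature, and adult granule neurons express both. In neurons, cytosines followed by A, above all in the sequence CAC, carry methylation that builds up after birth, and within gene bodies this CpH methylation tends to be lower where a gene is more highly transcribed. Here H stands for A, C or T, and CpH for the contexts CHG and CHH together. Both genes are known to be transcribed from the minus strand, so the 5′ end lies toward the high-coordinate end of each window. Below, 5′ end and 3′ end mean the ends of the window. The cytosines listed here are of the plus strand, the template strand of both genes.

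CpG methylation was lower across both genes than around them. In Grin2a 67.9% of 8410 read calls over 365 CpG sites were methylated (95% interval 66.9% to 68.9%). In Grin2b the level was 68.0% over 724 sites (67.3% to 68.7%). The 500 kb flanks of Grin2a stood at 79.0% on the low-coordinate side and 75.9% on the high-coordinate side. Those of Grin2b stood at 78.4% and 78.9%, and all autosomal sites of at most 100 reads at 79.0%. Gene minus both flanks was thus -9.59 percentage points for Grin2a (-10.7 to -8.46) and -10.7 points for Grin2b (-11.5 to -9.82).

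Few autosomal windows of that length were as low. Among 5696 autosomal windows as long as that of Grin2a, 1.65% had a lower CpG level, and the median window was at 79.7%. Among 5198 windows of the Grin2b length, 1.73% were lower. These ranks describe 1 library and carry no test.

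**Figure D1:**
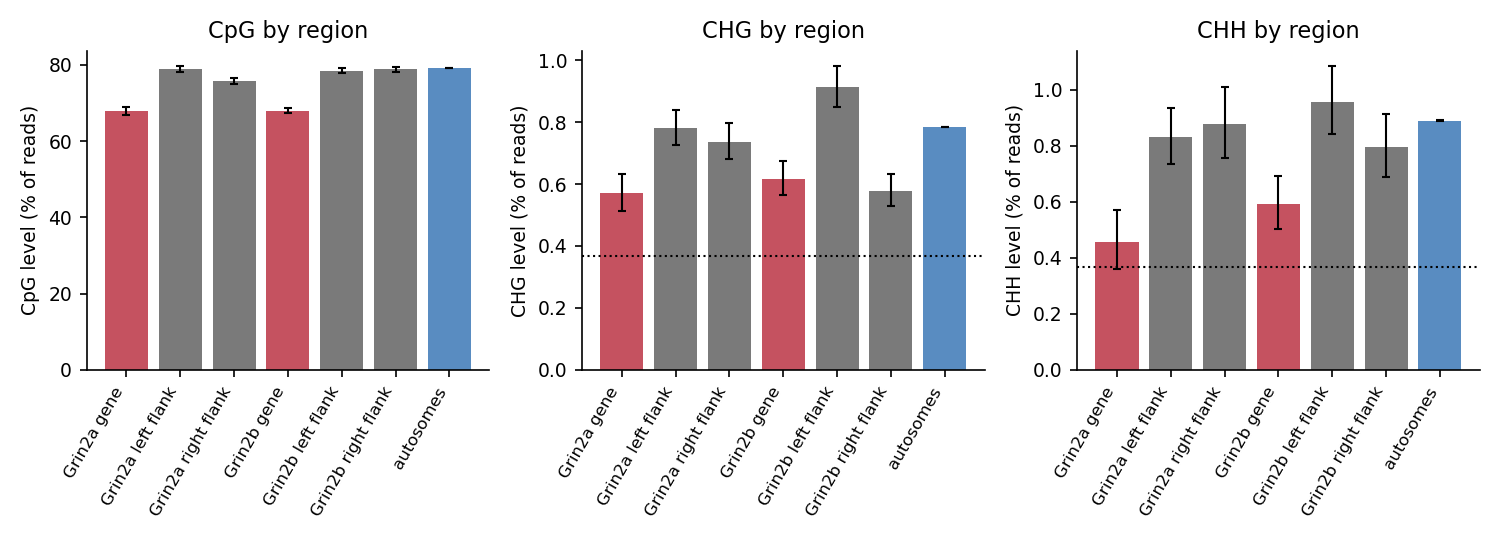
Methylation level (percent of reads) in each gene window, in its left (low-coordinate) and right (high-coordinate) 500 kb flank and over all autosomes, for CpG, CHG and CHH in replicate 2, with exact 95% intervals as error bars; the dotted line is the mitochondrial CpH level of 0.368%. Both gene bars lie below both of their flanks for CpG and CHH, while the CHG bar of Grin2b (0.62%) lies below its left flank (0.91%) and beside its right flank (0.58%).

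The lower CpG level was a broad shift of single sites as well as a set of low spots. The median CpG site was at 77.8% in Grin2a and 76.9% in Grin2b, against 86.4% and 89.3% in their flanks. Sites methylated in 80% or more of reads made up 48.8% of listed CpGs in Grin2a and 48.1% in Grin2b, but 64.9% and 66.2% in the flanks and 66.6% over the autosomes. Sites under 50% made up 27.7% in Grin2a and 25.6% in Grin2b. In the flanks these were 13.9% and 13.6%. Completely unmethylated CpGs were few, since 10 of 365 sites in Grin2a and 8 of 724 in Grin2b had no methylated read.

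**Figure D2:**
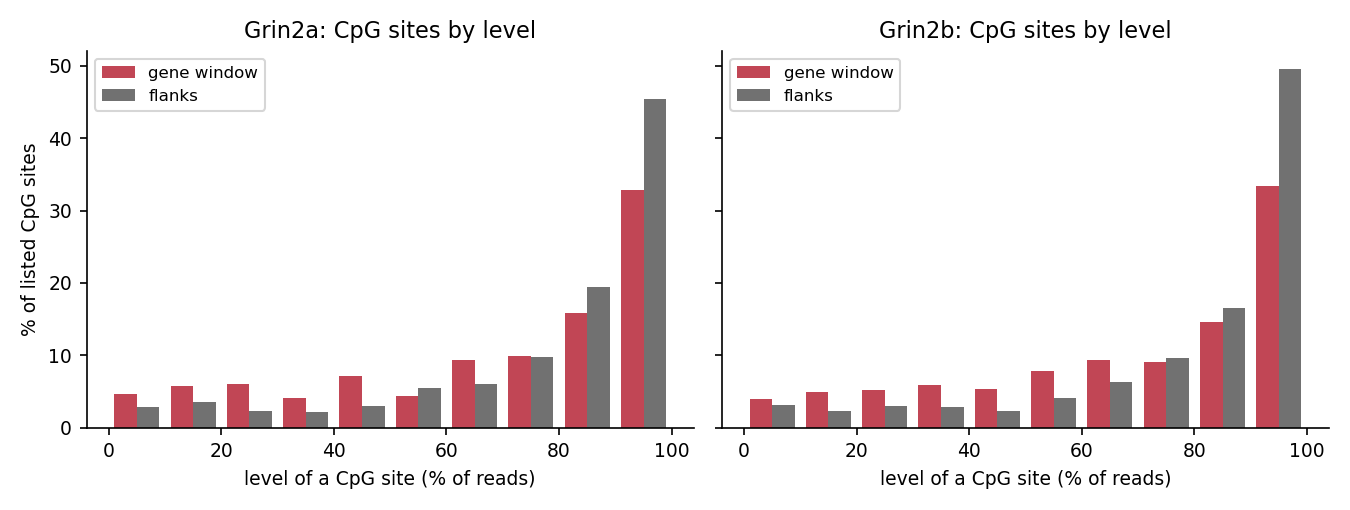
Share of listed CpG sites (percent, vertical) by the site's methylation level in bins of 10 percentage points (horizontal), in each gene window and in both of its flanks pooled. In both genes the highest bin is smaller than in the flanks, and each bin under 50% is larger.

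Along both genes the CpG level was lowest at the 5′ end. In 50 kb steps with at least 10 CpG sites, the first 8 steps of Grin2a from its low-coordinate end were at 67.9%, 76.4%, 76.3%, 67.3%, 64.3%, 73.7%, 65.1% and 69.3%. The short last step, of about 19 kb at the 5′ end, was at 24.5% over 17 sites (20.3% to 29.1%). Of 47450 autosomal windows of 50 kb, which are longer than that step, 0.0400% were lower. In Grin2b the steps were at 71.8%, 72.7%, 69.6%, 61.4%, 71.1%, 70.9%, 73.8%, 70.4% and 55.8%. A remaining 10.0 kb at the 5′ end held 4 CpG sites, together at 12.0%.

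All 9 counted steps of each gene lay below the median autosomal step of 80.5% and below the median flank step, which was 77.4% for Grin2a and 78.8% for Grin2b. Gene and flank steps nevertheless overlapped. The lowest flank step was at 67.4% beside Grin2a and 66.6% beside Grin2b, and only 4 and 2 gene steps lay below these. Of the flank steps, 12 of 20 around each gene were also below the autosomal median. Without the last 60 kb of each window, an alternative chosen after the data were seen, gene minus flanks was still -6.81 points for Grin2a and -8.51 points for Grin2b.

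**Figure D3:**
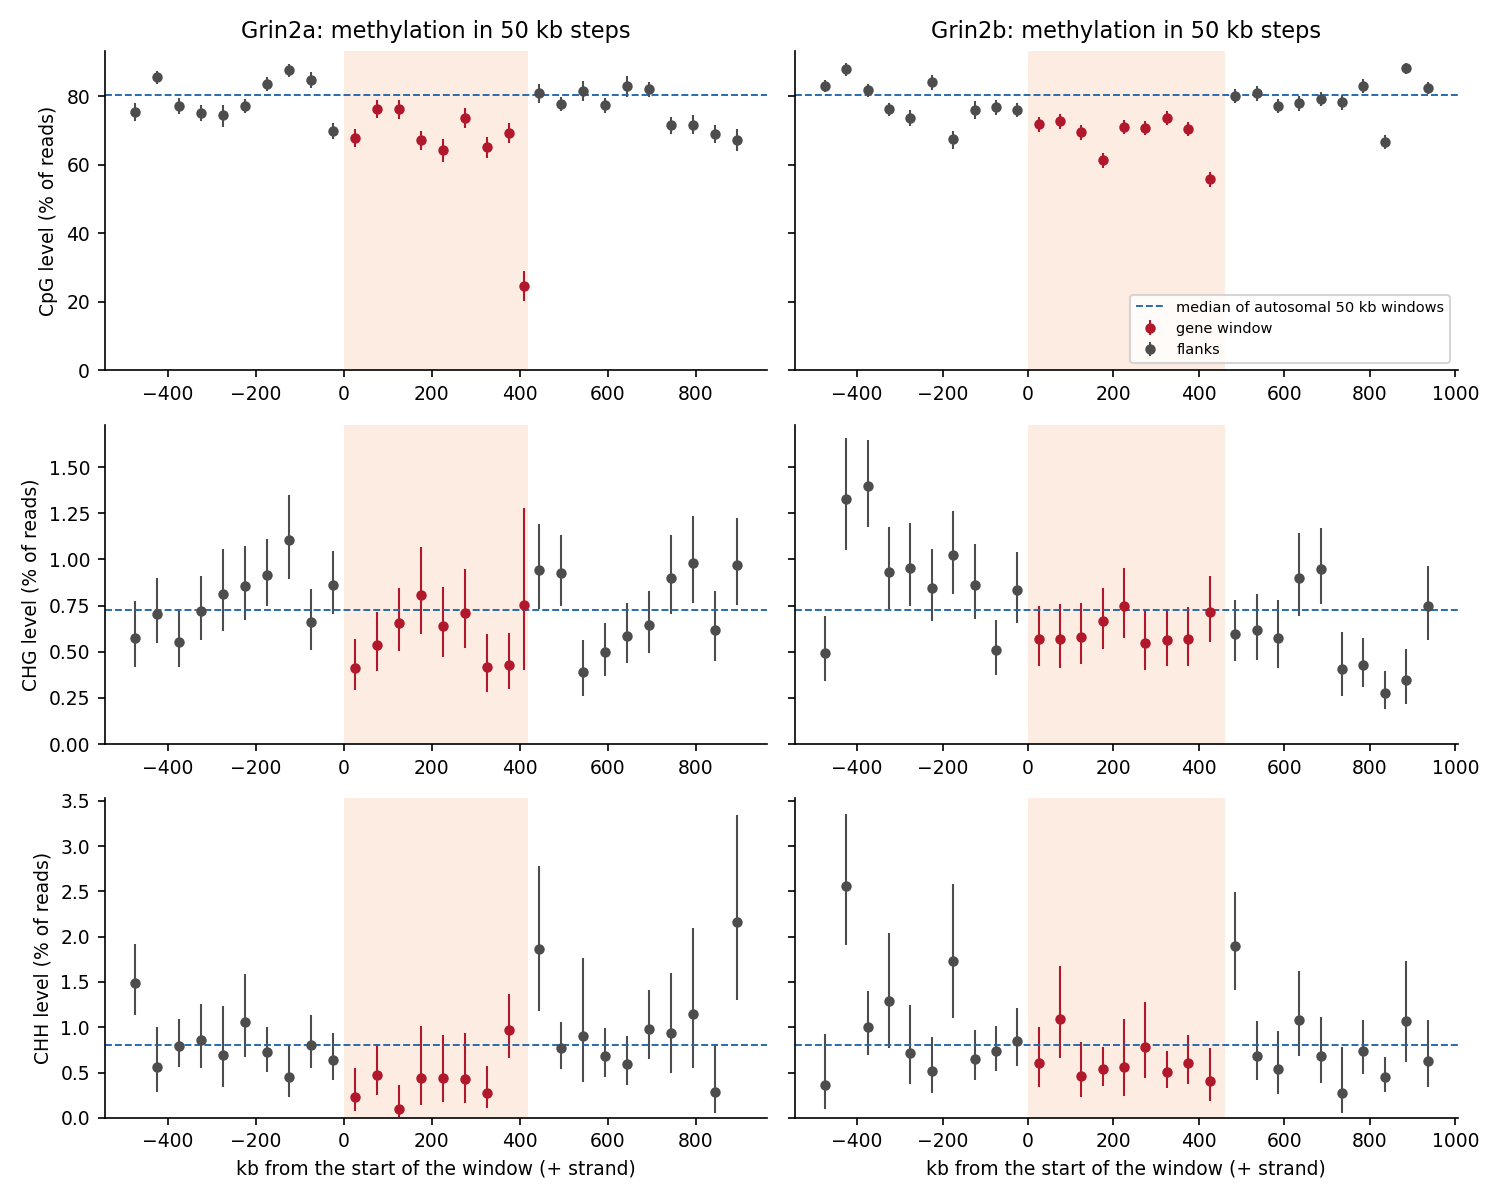
Methylation level (percent of reads) in 50 kb steps for CpG, CHG and CHH across each gene window (shaded, red points) and its 500 kb flanks (grey points), with exact 95% intervals, against distance from the start of the window in kb; the dashed line is the median autosomal 50 kb window. Steps with fewer than 10 CpG, 50 CHG or 20 CHH sites are left out, and every red CpG point lies under the dashed line.

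Low spots were then taken as stretches of at least 4 consecutive listed CpG sites, each methylated in under 50% of reads and at most 2 kb apart. Unlisted CpGs may lie between such sites. Grin2a held 6 stretches and Grin2b 12, that is 16.4 and 16.6 per 1000 listed CpG sites. The flanks held 1.99 and 6.38 per 1000 beside Grin2a (left, then right) and 9.51 and 11.9 beside Grin2b, and the autosomes 6.55. These counts are small and were not tested.

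In Grin2a the stretch with the most sites lay 7.07 kb inside the 5′ end of the window, at 9984910 to 9988932 of chromosome 16. Its 9 CpG sites ranged from 13.3% to 31.8% and were together at 21.6% of 208 reads. Closer to the 5′ end, 4 sites at 9993551 to 9993693 had no methylated read among 85. With 3 reads as an approximate upper bound, not the exact interval, this allows a level of up to 3.53%. The other 4 stretches lay between 150 and 250 kb from the low-coordinate end, in the middle of the gene. These were 9735811 to 9735964 (4 sites, 10.1%), 9755624 to 9758932 (4 sites, 26.8%), 9783539 to 9786110 (4 sites, 19.5%) and 9797564 to 9802013 (7 sites, 24.3%). The middle of the gene also held its lowest inner CpG step, 64.3% between 200 and 250 kb.

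In Grin2b the stretch with the most sites was likewise near the 5′ end, at 136100032 to 136101042 of chromosome 6, where 9 CpG sites were together at 14.0% of 207 reads. Nearer to that end, 5 sites at 136112107 to 136112911 were at 8.62%. Each of 2 further stretches had 7 sites, at 135683917 to 135685503 (23.2%) and 135746822 to 135748627 (18.9%), both toward the 3′ end. Others with 5 sites were 135804314 to 135804817 (17.6%), 135869067 to 135870437 (24.0%) and 136029947 to 136030840 (14.4%). The remaining 5 had 4 sites each and levels from 7.41% to 39.0%. Of the 12 stretches, 3 lay between 150 and 200 kb from the low-coordinate end, in the step that was at 61.4%.

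**Figure D4:**
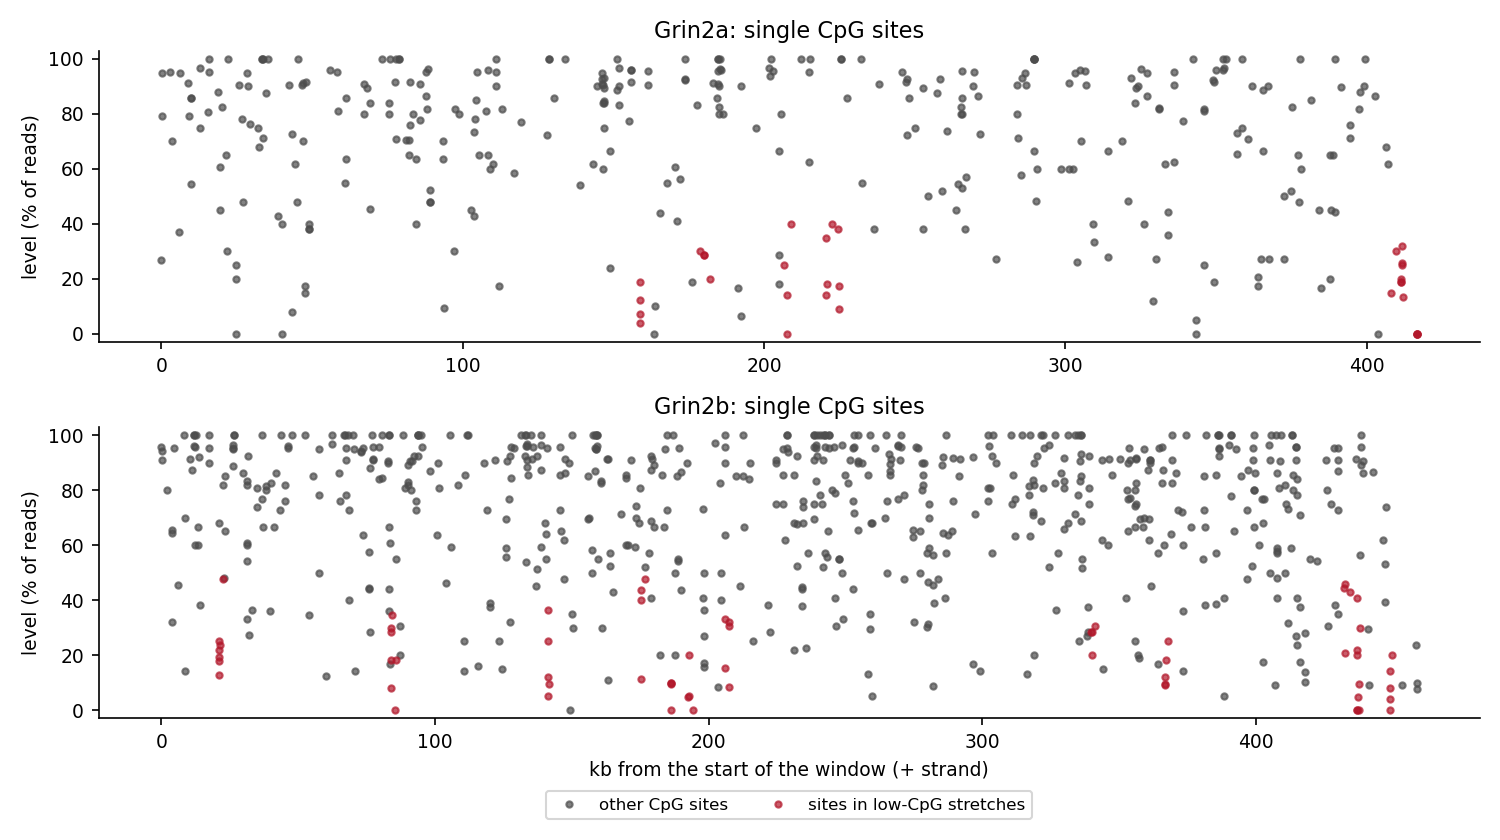
Level of each listed CpG site (percent of reads, vertical) against distance from the low-coordinate start of the window in kb (horizontal), with sites of low-CpG stretches in red. Most red groups lie among sites of higher level, while the 5′ end on the right of each panel is low as a whole, down to 0% in the last stretch of Grin2a.

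The stretches did not account for the whole difference from the flanks. Outside them the CpG level was 72.4% in Grin2a (71.4% to 73.4%) and 72.6% in Grin2b (71.9% to 73.3%). Outside stretches the flanks were at 79.0% and 82.2%. Gene minus flanks there was -6.61 points for Grin2a and -9.56 points for Grin2b. CpH cytosines inside the stretches were at 0.814% in Grin2a (14 of 1720 reads, 0.446% to 1.36%) and 0.625% in Grin2b (28 of 4483 reads, 0.415% to 0.901%). One stretch decided each of these values. In Grin2b the stretch at 135869067 to 135870437 held 19 of the 28 methylated CpH reads, and 16 of the 19 were at 5 CHG sites within 63 bases. The other 11 stretches were at 0.249% (9 of 3609 reads, 0.114% to 0.473%). In Grin2a the stretch at 9755624 to 9758932 held 7 of the 14, and the other 5 were at 0.464% (7 of 1507 reads, 0.187% to 0.955%). These values without a stretch were chosen after the data were seen. The stretch left out was the one with the most methylated CpH reads, a choice that by itself lowers the rest. The rest was therefore not set against the whole window.

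CpH methylation was low in absolute terms and lower in both genes than in both flanks pooled, most of all for CHH. The CHG level was 0.570% in Grin2a (361 of 63299 reads, 0.513% to 0.632%) and 0.616% in Grin2b (0.564% to 0.673%). The flanks together were at 0.760% and 0.748%, and the autosomes at 0.784%. The CHH level was 0.457% in Grin2a (78 of 17084 reads, 0.361% to 0.569%) and 0.592% in Grin2b (0.504% to 0.692%), against 0.849% and 0.877% in the flanks and 0.889% over the autosomes. Grin2a minus its flanks was -0.190 points for CHG (-0.259 to -0.116) and -0.392 points for CHH (-0.514 to -0.258). Grin2b minus its flanks was -0.131 points for CHG (-0.198 to -0.0616) and -0.284 points for CHH (-0.405 to -0.158).

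Cytosines of the mitochondrial genome, taken as little methylated, gave a CpH level of 0.368% in this library, used here as the rate of failed conversion. The CHG level was 1.55 times that in Grin2a and 1.68 times in Grin2b. The CHH level was 1.24 and 1.61 times that background, and for Grin2a its interval reached down to 0.361%. Pooled over all CHH sites of the Grin2a window, the level was therefore not distinguishable from the mitochondrial level at this depth. Over the autosomes, CHH sites directly followed by a listed cytosine were at 0.355% (0.354% to 0.357%), below the mitochondrial 0.368% (0.365% to 0.370%). The mitochondrial level is thus not the lowest level of every class of nuclear site. Whether it equals failed conversion at other nuclear CHH sites was not tested. The pool of the Grin2a window mixes unlike sites. Its CHH sites directly followed by a listed cytosine were at 0.156% (0.0571% to 0.338%), below the background. Those with a listed cytosine only at the second base after were at 1.03% (0.702% to 1.46%), 2.81 times the background. In the flanks CHH was 2.31 times the background around Grin2a and 2.39 times around Grin2b.

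The 2 flanks of Grin2b differed from each other in CHG. The low-coordinate flank, beyond the 3′ end, was at 0.914% (0.850% to 0.981%), and the high-coordinate flank at 0.579% (0.528% to 0.634%). Gene minus flank was -0.298 points for the first (-0.383 to -0.213) and 0.0374 points for the second (-0.0378 to 0.113), a difference within counting error. The lower CHG level of Grin2b thus held against 1 side only. Its CHH level was below both, at -0.364 points from the first (-0.518 to -0.214) and -0.203 points from the second (-0.349 to -0.0595). Grin2a was below both of its flanks, at -0.210 and -0.167 points in CHG and -0.374 and -0.420 points in CHH.

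Against autosomal windows of the same length, 11.9% of 5708 were lower than Grin2a in CHG and 19.02% of 5211 lower than Grin2b. For CHH, 4.08% of 5612 windows were lower than Grin2a and 10.6% of 5151 lower than Grin2b. Both genes ranked lower for CpG than for either CpH context.

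Within the genes, CHG steps of 50 kb were spread more widely in Grin2a than in Grin2b. In Grin2a the 9 steps ran from 0.411% at the 3′ end to 0.805% between 150 and 200 kb, with a median of 0.641%. The intervals of that lowest and highest step, picked as extremes of 9, did not overlap (0.290% to 0.567% and 0.594% to 1.07%). In Grin2b the CHG steps ran from 0.547% (250 to 300 kb) to 0.745% (200 to 250 kb), with a median of 0.569%. There the intervals of the lowest and highest step overlapped (0.402% to 0.727% and 0.572% to 0.954%). That highest step of Grin2b rests in part on 5 CHG sites within 63 bases (135870142 to 135870204), with 16 of its 62 methylated reads. Without them, a choice made after the data were seen, it was at 0.560% (0.410% to 0.747%), below 0.715% between 400 and 450 kb. Flank steps reached from 0.391% to 1.10% around Grin2a and from 0.279% to 1.40% around Grin2b, so every gene step overlapped with the flanks. Of the gene steps, 7 of 9 in Grin2a and 8 of 9 in Grin2b lay below the autosomal median of 0.728%.

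CHH steps varied more in relation to their level. In Grin2a, of 8 steps with at least 20 sites, the lowest was 0.101% between 100 and 150 kb (0.0122% to 0.364%). The highest was 0.969% between 350 and 400 kb (0.663% to 1.36%), and the 6 others lay between 0.234% and 0.475%. That step, near the 5′ end, was the only one of Grin2a above the autosomal median of 0.808%, and it held 4 of the 8 CHH sites called methylated in the gene. In Grin2b the 9 CHH steps ran from 0.409% (400 to 450 kb) to 1.09% (50 to 100 kb), and 8 lay below that median. Intervals of single CHH steps are wide, with 36 to 158 sites in each, and the highest and lowest steps of Grin2b overlapped in theirs.

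The CpH level depended strongly on neighbouring cytosines, which were read from the listed positions because no genome sequence was used. A CHH site with a cytosine listed 2 bases on, and none listed on the base between, has C at that place, as in CAC or CTC. A site whose next base is listed is of the type CC. In every class, a base that is not listed can still be a cytosine that fell below the depth minimum. The class with only the second base listed can thus also hold CCC sites.

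In the class with only the second base listed, the CHH level of 1.03% in Grin2a came from 31 of 3006 reads at 91 sites. It was 1.13% in Grin2b (49 of 4342 reads at 130 sites, 0.836% to 1.49%). The flanks were at 1.83% and 2.02% and the autosomes at 2.06%. Both genes stood at 0.56 times the level of their pooled flanks in this class. Gene minus pooled flanks was -0.798 points for Grin2a (-1.23 to -0.296) and -0.893 points for Grin2b (-1.31 to -0.442). By side, the flanks of Grin2b were at 2.45% (left, 2.03% to 2.93%) and 1.55% (right, 1.20% to 1.97%). Those of Grin2a were at 1.75% (left, 1.40% to 2.15%) and 1.95% (right, 1.52% to 2.45%). The gene's interval overlapped that of the right flank in Grin2b and of the left flank in Grin2a.

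CHH sites directly followed by a listed cytosine were near or below the mitochondrial background, with 6 of 3858 reads methylated in Grin2a and 0.349% in Grin2b (0.221% to 0.523%). The same class was at 0.355% over the autosomes. For Grin2b it did not differ from the flanks beyond counting error (-0.0224 points, -0.196 to 0.176). For Grin2a gene minus flanks was -0.235 points (-0.381 to -0.0304), on 6 methylated reads. CHH sites with neither base listed were at 0.401% in Grin2a and 0.546% in Grin2b, against 0.780% and 0.729% in the flanks.

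CHG sites directly followed by a listed CpG, of the type CCG, were also near the background, at 0.442% of 1583 reads in Grin2a and 0.313% of 3514 reads in Grin2b. Their difference from the flanks was within counting error for both genes (-0.297 to 0.511 and -0.353 to 0.154 points). CHG sites whose next base was not listed were lower in the genes than in both flanks pooled. They were at 0.574% in Grin2a against 0.770%, and at 0.630% in Grin2b against 0.762%. In Grin2b this held against the left flank (0.936%) and not against the right flank (0.584%).

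**Figure D5:**
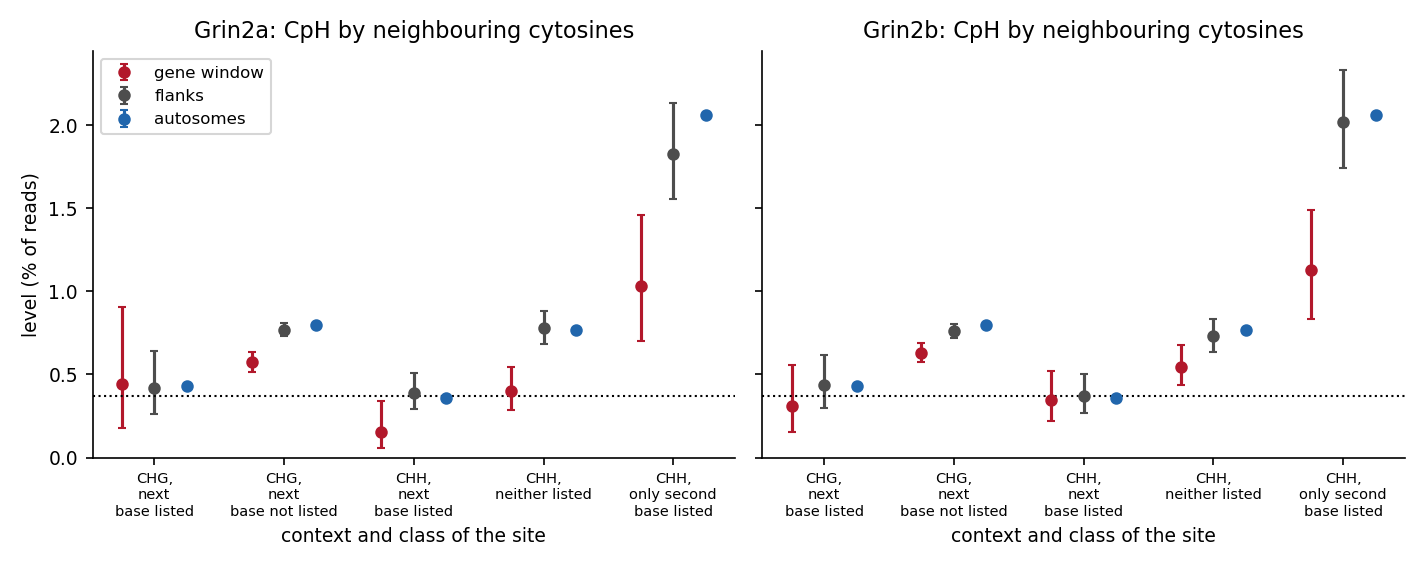
CpH level (percent of reads, with exact 95% intervals) by context and by which of the next 2 bases is a listed cytosine, in each gene window, its flanks and all autosomes; the dotted line is the mitochondrial CpH level of 0.368%. The class with only the second base listed is highest everywhere and is at 1.03% and 1.13% in the genes against 1.83% and 2.02% in the flanks.

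Each single cytosine was tested for more methylated reads than the mitochondrial rate gives (exact binomial test, one-sided), with Benjamini-Hochberg adjustment at 0.01 over all nuclear sites of the context with at most 100 reads. For CpG 353 of 365 sites passed in Grin2a and 709 of 724 in Grin2b, against 97.5% of all such sites in the library. For CHG 28 of 2719 sites passed in Grin2a (1.03%, 0.685% to 1.48%) and 32 of 3407 in Grin2b (0.939%, 0.643% to 1.32%), against 1.46% in the library. For CHH 8 of 521 passed in Grin2a (1.54%, 0.665% to 3.003%) and 12 of 786 in Grin2b (1.53%, 0.791% to 2.65%), against 2.75%. The library share lay inside the interval of Grin2a in both CpH contexts and above that of Grin2b in both. In the flanks 91 of 7405 CHG sites passed around Grin2a (1.23%) and 91 of 6932 around Grin2b (1.31%). By side, the flanks of Grin2b had 65 of 3476 on the left (1.87%) and 26 of 3456 on the right (0.752%). The share of Grin2b was thus below its left flank and not below its right flank in CHG. For CHH 47 of 1649 flank sites passed around Grin2a (2.85%) and 45 of 1536 around Grin2b (2.93%). No read was methylated at 92.5% of the CHG sites of Grin2a and at 92.3% of its CHH sites, nor at 91.3% and 88.2% of those of Grin2b. Of the 32 called CHG sites of Grin2b, 9 lay between 200 and 250 kb, and 5 of these 9 are the neighbours within 63 bases, with 3 to 4 methylated reads each. Sites so close can share the same reads, so they may not be separate observations. Among called CHG sites 13 of 28 in Grin2a and 16 of 32 in Grin2b lay within 100 bases of a listed CpG, against 43.8% and 58.1% of all listed CHG sites in these windows.

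Called CpH sites were partly methylated, from 8.82% to 38.1% of reads, and each rested on 3 to 8 methylated reads. In Grin2b the highest CHG site was position 135974201, with 8 of 21 reads methylated (38.1%, exact binomial test, adjusted p = 1.01e-11), 12 bases from a CpG at 85.7%. The next were 135712241 (8 of 22 reads) and 136076309 (8 of 27 reads), the latter 7 bases from a fully methylated CpG. Its highest CHH sites were 135750913 (5 of 31 reads), 136013384 (4 of 30) and 135694427 (4 of 31).

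In Grin2a the highest CHG site was position 9755878, with 7 of 22 reads (31.8%, exact binomial test, adjusted p = 1.30e-09). It lay inside the low-CpG stretch at 9755624 to 9758932, 254 bases from a CpG at 30%. The other 2 were 9780139 (6 of 20 reads) and 9673953 (5 of 21). The highest CHH sites were 9948443 (6 of 30 reads), 9971477 (6 of 34) and 9633750 (4 of 32). The first 2 lay in the step between 350 and 400 kb and had only the second base listed. That class held 4 of 8 called CHH sites in Grin2a and 5 of 12 in Grin2b, and it made up 17.5% and 16.5% of their listed CHH sites. Over the autosomes it made up 16.3% of CHH sites and was at 2.06%. Its share of called sites outside the genes was not counted, so these counts do not set the genes apart.

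Directly compared, no difference between Grin2a and Grin2b was detectable at this depth. Grin2a minus Grin2b was -0.127 points for CpG (-1.35 to 1.09), -0.0461 points for CHG (-0.125 to 0.0344) and -0.136 points for CHH (-0.271 to 0.00568), and each interval included 0. They did differ in how many CpGs were listed, with 0.871 per kb in Grin2a and 1.57 per kb in Grin2b.

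Replicate 1 listed 74 cytosines in the windows, of which 48 were also listed in replicate 2. By Fisher's exact test, with Benjamini-Hochberg adjustment over 54732 sites shared by the libraries, 0 of these 48 differed, while 3 had an unadjusted p under 0.05. Over all shared sites 13 differed, or 0.0238%. At shared sites replicate 1 was higher at 16, lower at 12 and equal at 20. The 2 shared CpGs of Grin2b together were at 83.7% in replicate 1 and 86.5% in replicate 2, and the shared CpG of Grin2a at 100% and 96.3%. The 2 shared CHG sites of Grin2a were less alike, with 6 of 42 reads methylated in replicate 1 (14.3%, 5.43% to 28.5%) and 0 of 44 in replicate 2. All 6 were at position 9712658.

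Of the 43 CpH sites of Grin2b seen in both libraries, 38 lay in a single segment, 135814757 to 135814970. There replicate 1 was at 1.72% (1.21% to 2.38%) and replicate 2 at 0.723% (0.422% to 1.16%). The mitochondrial CpH level of replicate 1 was also higher, 0.418% against 0.368%; its part in that difference was not tested. Replicate 1 therefore gives no check of the gene-wide levels.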

How the data were processed

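Whole-genome bisulfite libraries of 2 dentate gyrus samples were used. Per the labels' protocols, 3 µg DNA with 0.5% unmethylated lambda DNA was sheared to about 300 bp, converted and amplified by PCR. Bismark 0.7.5 and mm9 are named in the submitters' processing notes. How reads were trimmed, and whether PCR duplicates or unconverted reads were removed, is not given in the sources used here. For every plus-strand cytosine listed, the authors deposited counts of reads (methylated, unmethylated and their total) and the percent methylated. Totals started at 20 reads, or 30 for CHH in replicate 2, so CHH sites are deeper than the others and shallower cytosines are not analysed here. Replicate 1 listed 172020 cytosines (30594981 read calls) and replicate 2 27435342 (791200717 read calls), at a median of 22 to 23 reads for CpG and CHG and 31 to 32 for CHH in the gene windows and their flanks.

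A level is the summed methylated reads over the summed total reads, at sites of at most 100 reads. The mitochondrial CpH level is the exception, taken over all 2796 listed mitochondrial CHG and CHH sites of replicate 2 with no depth limit. The strand was checked: no CpG had a listed cytosine on its next base, and no CHG site on the second. Binomial, Fisher and interval computations used scipy 1.17.1 and statsmodels 0.14.6. The binomial calls, the stretch rule and the Newcombe interval were tested on simulated data, while the Fisher test and the Clopper-Pearson interval were not. Gene windows are as given for mm9, with no mm9 annotation used. The RefSeq promoter table matched 0 of the 2 genes. Gene neighbours came from RefSeq gene order in another build.

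Named sites were the 3 CHG and 3 CHH sites of highest level among called sites per gene (ties by more reads, then lower position), the highest and lowest 50 kb steps, the low-CpG stretches and any site past the Fisher test. Other glutamate receptor genes were not analysed here, since that needs mm9 positions. The genes, their windows and these rules were chosen with earlier results of these data known. Alternatives covered depth limits, site means, flank size and side, neighbour class, stretch rules, the background rate and leaving out a library.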

Additional observations from a re-analysis of the deposited data

How the results depend on the processing

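Of 53 alternatives that kept replicate 2 and changed the sites or the value, 51 left the genes below their flanks; the exceptions were CHG in Grin2b at 40 reads or more (0.571 points above, on 18 gene sites) and against its right flank (0.0374 points above). Gene minus flanks for CpG was -20.7 (Grin2a, 11 sites) and -12.1 (Grin2b) points at 30 reads, -6.61 and -9.56 outside stretches, -11.7 and -9.68 with flanks of 250 kb, and -6.81 and -8.51 without the last 60 kb (chosen after the data were seen). For Grin2a it was -11.1 against the left and -7.98 against the right flank, and for Grin2b -8.78 with flanks of 1 Mb. With flanks of 1 Mb Grin2a was at -0.282 (CHG) and -0.534 (CHH) points. At 40 reads, with 7 to 57 gene sites, it was at -0.364 (CHG) and -0.541 (CHH), Grin2b at -0.0701 (CHH), and Grin2a minus Grin2b at -0.787 (CHG) and -0.408 (CHH). CHG in Grin2b was at -0.298 against its left flank. Grin2a minus Grin2b for CpG was -1.55 at 30 reads. At 40 reads no CpG difference could be had, as neither Grin2a nor the flanks of Grin2b listed such a CpG. Leaving out replicate 2 left 1 to 30 sites per gene and context. Gene minus flanks was then 6.98 (CHG) and 1.22 (CHH) points in Grin2a, and -14.0 (CpG), 2.29 (CHG) and 1.59 (CHH) in Grin2b, so both CpH directions reversed on these few sites. Grin2a minus Grin2b was 16.3 (CpG), 5.07 (CHG) and -0.415 (CHH). Leaving out replicate 1 changed nothing, since levels come from replicate 2: gene minus flanks remained -9.59, -0.190 and -0.392 points in Grin2a and -10.7, -0.131 and -0.284 in Grin2b, and Grin2a minus Grin2b -0.127, -0.0461 and -0.136 (CpG, CHG, CHH). With a background rate of 1%, 9 CHG and 2 CHH sites were called in Grin2a and 16 and 1 in Grin2b; at 30 reads 2 and 3 CHG sites were called, of 156 and 247 tested. Low-CpG stretches numbered 11 and 21 (Grin2a, Grin2b) with at least 3 sites, 2 and 3 with at least 6, 3 and 6 with each site under 30%, and 3 and 7 with neighbours at most 500 bases apart, so their count follows the rule used. Of 12 highest or lowest steps, 9 overlapped those at 25 kb and 7 those at 100 kb. No site of the windows differed between libraries with no upper depth limit or at 30 reads or more (Fisher's exact test, 0 sites, against 3 and 2 at an unadjusted p under 0.05). No paired analysis was possible because the study has a single group. Beyond the fewer sites named, the cause was not tested.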

Other observations

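Across 28 steps of 50 kb in Grin2a and its flanks, CHG and CHH levels, which come from separate sites, had a Pearson r of 0.35 and a Spearman rho of 0.32. Across 29 steps around Grin2b these were 0.52 and 0.42. Over the same steps CpG and CHG levels had r of 0.19 (Grin2a) and 0.16 (Grin2b), and CpG and CHH levels r of 0.071 and 0.33. The steps share a library and its depth, so these values are a description.

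CpH levels inside low-CpG stretches were uneven. In Grin2b the stretch at 135869067 to 135870437 of chromosome 6 was at 2.17% over 33 CpH sites (19 of 874 reads), while its CpG level was 24.0%. Of these 19 reads, 16 were at the 5 called CHG sites within 63 bases, which can share the same reads. In Grin2a the stretch at 9755624 to 9758932 of chromosome 16 was at 3.29% over 10 CpH sites, and all 7 methylated reads among 213 were at the called CHG site 9755878. The stretch at 9797564 to 9802013 had no methylated CpH read among 545. These stretches were chosen after their values were seen.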
